A study of Drosophila melanogaster with 40 samples.

Results

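The metallothionein genes MtnA, MtnB, MtnC, MtnD and MtnE of Drosophila melanogaster were followed over recovery from heat shock, over age and over genotype. They were picked out by matching the gene identifiers of the count table to these symbols, and they are 5 of 17609 genes in the table. A further annotated metallothionein gene, MtnF (FBgn0262858), is not among them and is not described here. All 5 passed the filter on low counts, as did 11449 genes in all.

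RNA of whole flies was read at its 3' end in 40 libraries. Ablated flies had lost their insulin-producing cells, a small group of neurosecretory cells in the brain, and they were set against wild-type flies. There were 7 libraries of old and 7 of young ablated flies, and 13 of old and 13 of young wild-type flies. Each of these 4 combinations had 1 library of climbers at 0, 1, 2, 4, 6 and 8 h after heat shock and 1 control library at 4 h without it. Wild-type flies also gave 1 library of non-climbers at each hour, meaning flies that did not climb in the test made after heat shock. Climbing was not assessed in controls, and ablated non-climbers were not analysed here. The ages in days, the sex, the number of flies per library, the heat shock's temperature and the driver of the ablation are not given in the sources used here.

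Metallothioneins are very small proteins, rich in cysteine, whose thiol groups bind copper, zinc and cadmium. In flies their genes are switched on by the zinc finger factor MTF-1, which binds short metal response elements in their promoters, and much of their expression lies in the gut, where dietary metal arrives. MtnA is known above all for its response to copper and MtnB for its response to cadmium, while MtnC, MtnD and MtnE are the lesser studied members of the group.

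In the Ensembl annotation of BDGP6, the assembly also called dm6, all 5 genes lie on chromosome arm 3R and have 2 exons. MtnA (FBgn0002868) lies at 3R:9783407-9784370 on the minus strand. The other 4 lie at least 10575937 bases away from it. MtnC (FBgn0038790) lies at 3R:20360308-20360634 on the plus strand, and MtnB (FBgn0002869) at 3R:20503102-20503746 on the minus strand. MtnE (FBgn0262146) lies at 3R:20534021-20534704 on the minus strand and MtnD (FBgn0053192) at 3R:20534962-20535301 on the plus strand. The starts of MtnD and MtnE thus face each other with 257 bases between the genes. The encoded proteins have 40 residues (MtnA), 43 (MtnB), 43 (MtnC), 44 (MtnD) and 41 (MtnE). No other annotated gene overlaps any of the 5. How reads shared between these related genes were counted is not given in the sources used here, so that a value of 1 member may hold reads of another.

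**Figure D1:**
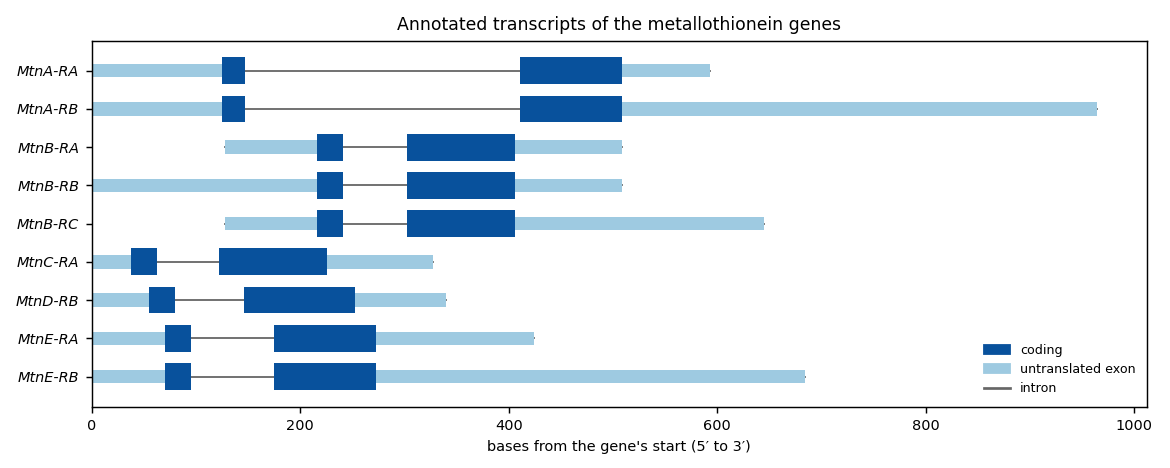
Annotated transcripts of the 5 genes, drawn 5' to 3' in bases from the start of each gene, with coding exons as tall bars, untranslated exons as low bars and introns as lines. Each transcript has 2 exons, and MtnA, MtnB and MtnE have more than 1 annotated 3' end, which is where this assay reads.

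Library totals ran from 11714961 to 48747409 counts (median 19024004), and the 5 genes together took 0.0359% to 0.265% of them. The fewest counts of a member in any library were 82, for MtnD, so that counting error was small beside the spread between libraries. No label says which libraries came from separate cultures. Since each condition had 1 library, the spread was taken from the scatter around an additive model of genotype with age, hour and climbing, with 28 residual degrees of freedom. The p-values measure that scatter, which may be technical. The transcripts of the ablated cells were low where the labels say ablated: Ilp2, Ilp3 and Ilp5 summed to at most 1.01 CPM in old and 0.231 CPM in young ablated libraries, against at least 1.34 CPM in old and 1.06 CPM in young wild-type libraries. Among the 13 inducible heat shock genes tested, the mean log2 CPM was 5.33 in the library labelled ablated young control, above the other 3 controls, whose highest value was 4.13. It was 2.79 in the library labelled ablated young 6 h. Both libraries go against their labels, and results that rest on them are given with and without them. By their transcripts that do not code for protein, 12 ablated libraries formed a set of their own, while the ablated young 0 h and 1 h libraries lay with all 26 wild-type libraries.

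The level of every member was highest in ablated flies. Levels are CPM, read counts divided by library totals that were scaled by the trimmed mean of M values, given as lowest, median and highest library, and they are not compared between genes. MtnA stood at 1258, 1398 and 2118 CPM in ablated old flies and at 657, 1003 and 1819 CPM in ablated young flies. It stood at 441, 541 and 886 CPM in wild-type old flies and at 299, 484.5 and 822 CPM in wild-type young flies. All ablated old libraries lay above all wild-type libraries, whereas the ablated young ranges reached down into the wild-type range. For such a separation, here and below, the share of all genes is not given.

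MtnB stood at 43.1, 58.3 and 70.0 CPM in ablated old flies and at 22.2, 31.8 and 61.6 CPM in ablated young flies. It stood at 7.43, 10.3 and 21.7 CPM in wild-type old flies and at 19.5, 21.3 and 27.98 CPM in wild-type young flies. The wild-type old libraries were thus the lowest for this gene, and again no ablated old library reached down to a wild-type one.

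MtnC had the widest range of the 5 as a ratio of highest to lowest library. It stood at 41.3, 55.9 and 90.8 CPM in ablated old flies and at 37.0, 64.2 and 219 CPM in ablated young flies, so that its highest median was in young flies. It stood at 7.43, 13.0 and 24.5 CPM in wild-type old flies and at 19.4, 30.8 and 63.3 CPM in wild-type young flies. The wild-type young maximum was the control library, and the ablated young maximum was the library labelled 6 h.

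MtnD stood at 16.6, 33.9 and 71.1 CPM in ablated old flies, at 11.8, 21.9 and 58.6 CPM in ablated young flies, at 4.21, 7.52 and 13.9 CPM in wild-type old flies and at 6.71, 15.8 and 29.0 CPM in wild-type young flies. MtnE stood at 25.7, 90.0 and 201 CPM in ablated old flies, at 22.7, 53.9 and 79.7 CPM in ablated young flies, at 8.36, 15.7 and 38.5 CPM in wild-type old flies and at 12.1, 26.8 and 62.5 CPM in wild-type young flies. For both genes the order of medians was ablated old, ablated young, wild-type young and wild-type old. Of the neighbours in these orders that the model compares, ablated old and ablated young flies did not pass the test for MtnC and MtnD, nor did ablated young and wild-type young flies for MtnD, wild-type old and young climbers for MtnE, and wild-type old and young non-climbers for MtnA and MtnD.

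**Figure D2:**
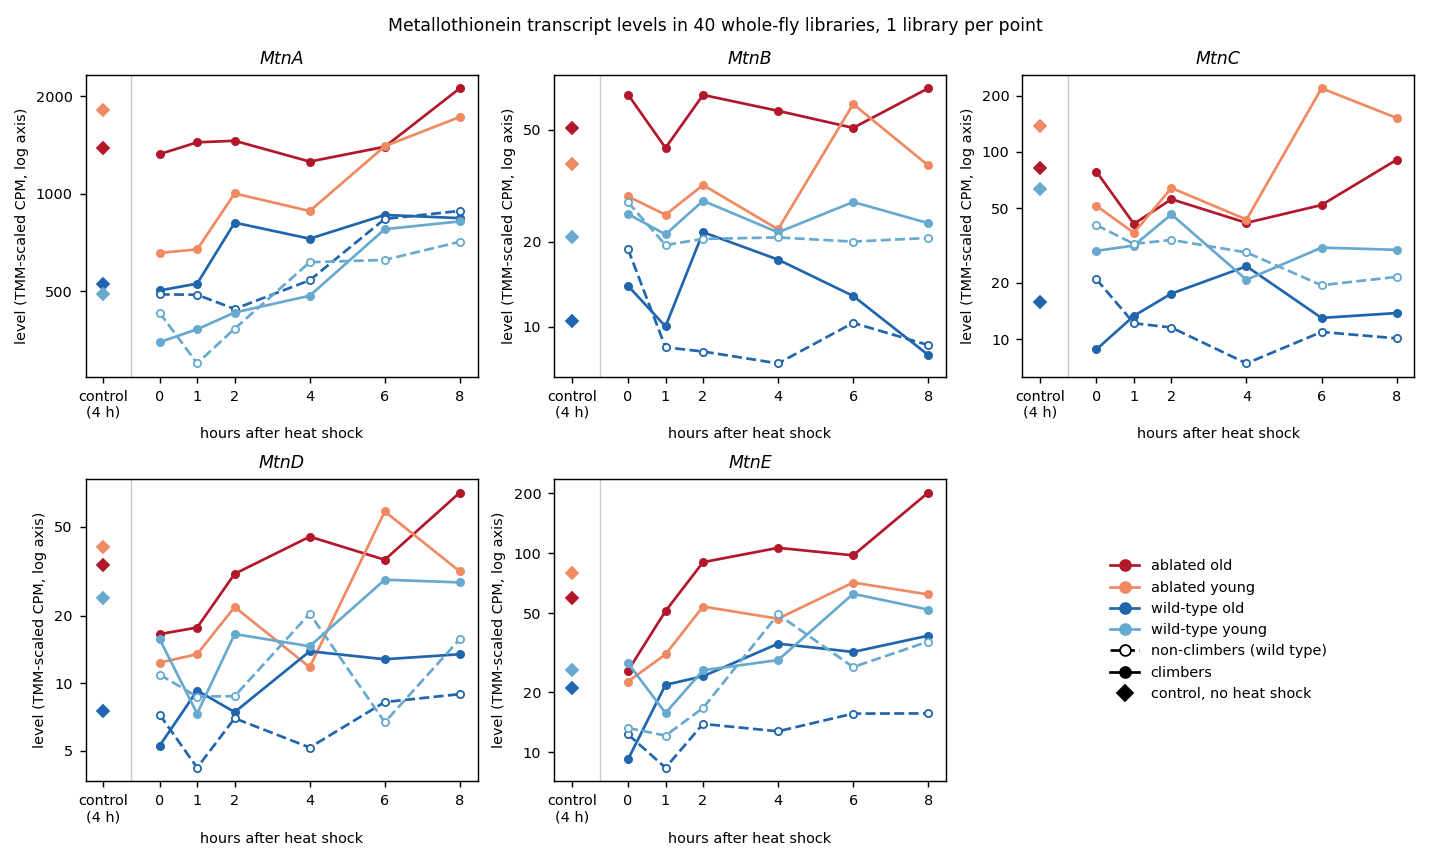
TMM-scaled CPM of each gene on a log axis against hours after heat shock, 1 library per point, with controls at the left of each panel. Solid lines join climbers and dashed lines join non-climbers. Ablated old flies (dark red) lie above wild-type old flies (dark blue) at every hour for all 5 genes, and MtnE in ablated old flies reaches 201 CPM at 8 h.

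Whether loss of the insulin-producing cells changes metallothionein transcripts was asked at each age. In young flies MtnA rose in ablated against wild-type flies by a log2 fold change of 1.12 ± 0.15 (SE), a 2.17-fold difference (adjusted p = 7.57e-07, edgeR quasi-likelihood test with Benjamini-Hochberg adjustment over all genes). MtnC rose by 1.45 ± 0.33 (adjusted p = 0.00102), MtnE by 0.64 ± 0.24 (adjusted p = 0.0431) and MtnB by 0.54 ± 0.18 (adjusted p = 0.022). MtnD stood at 0.45 ± 0.27 and did not pass (adjusted p = 0.206). Thus 4 of 5 members were called, in a comparison in which 33% of all genes were called and 18.2% were called higher. Between libraries of the same hour, MtnA, MtnB and MtnC were higher in ablated flies in 7 of 7 pairs, with an exact two-sided sign-flip permutation p of 0.0156 for each, the smallest that 7 pairs allow. MtnE was higher in 6 of 7 pairs (exact p = 0.0625) and MtnD in 5 of 7 (exact p = 0.141). For such counts of pairs, here and below, the share of all genes is not given.

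In old flies all 5 members rose in ablated against wild-type flies, where 56.9% of all genes were called and 29.9% were called higher. MtnB rose most, by 2.12 ± 0.19 or 4.34-fold (adjusted p = 6.98e-11, edgeR). MtnC rose by 1.98 ± 0.33 (adjusted p = 9.68e-06), MtnD by 1.77 ± 0.28 (adjusted p = 2.88e-06), MtnE by 1.71 ± 0.25 (adjusted p = 7.78e-07) and MtnA by 1.13 ± 0.15 (adjusted p = 8.53e-08). Each gene was higher in 7 of 7 pairs of the same hour (exact p = 0.0156 each). The mean over the 7 pairs was 57.95 ± 10.1 CPM for MtnB in ablated old flies and 13.5 ± 4.71 CPM in wild-type old flies (SD, n = 7 each). For MtnA it was 1484 ± 288 CPM in ablated old flies and 686 ± 162 CPM in wild-type old flies. The least of these pair differences was 0.70 on the log2 scale, for MtnA at 6 h, and the greatest was 3.14, for MtnC at 0 h.

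**Figure D3:**
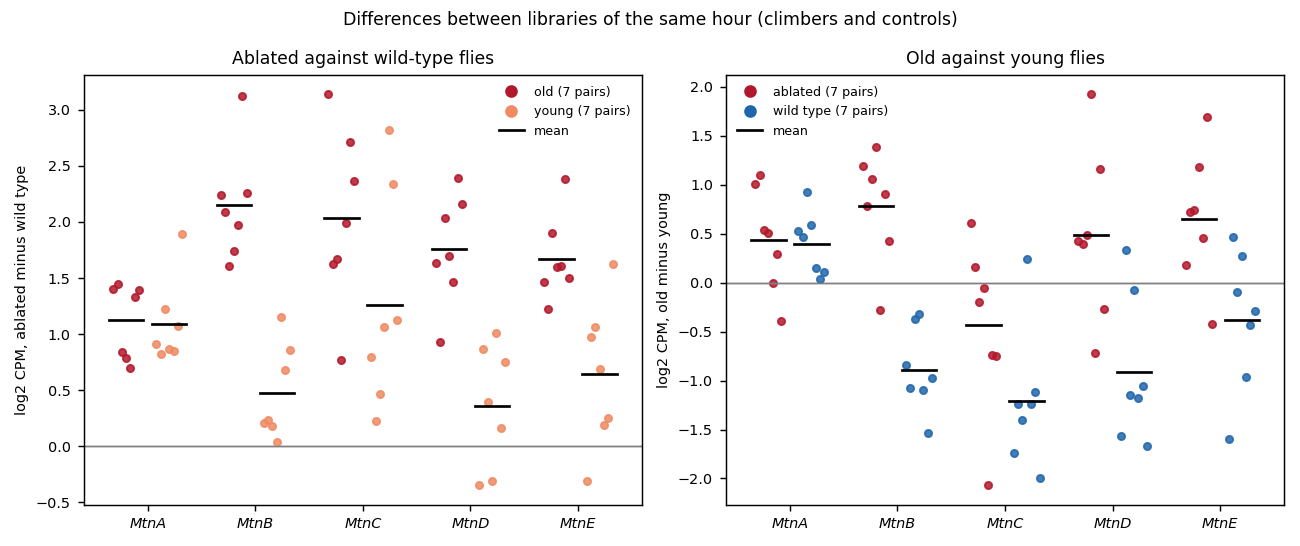
Differences in log2 CPM between 2 libraries of the same hour, 1 point per pair, with the mean as a black line. On the left are ablated minus wild-type flies, old and young, and on the right old minus young flies, ablated and wild type. All old points on the left lie above 0, and MtnB lies above 0 in 6 of 7 ablated pairs and below 0 in 7 of 7 wild-type pairs on the right.

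Genotype was tied to batch and to library set. The labels number 5 batches, and no pair of ablated and wild-type libraries of the same age and hour shared one. With batch as a covariate the young differences ran from 1.21 for MtnA to 2.59 for MtnC and none was called, and in old flies MtnB alone was called (2.81, adjusted p = 0.019, edgeR). The old differences of the other members were then 3.01 for MtnE, 2.89 for MtnD, 1.90 for MtnC and 1.11 for MtnA (adjusted p 0.076 to 0.402). The set formed by transcripts without protein coding likewise held no wild-type library. With that set as a covariate MtnA kept its call in young flies (0.69, adjusted p = 0.0333), while MtnB stood at 0.10 (adjusted p = 0.852), MtnC at 0.30 (adjusted p = 0.71) and MtnE at 0.39 (adjusted p = 0.557). In old flies the same covariate left MtnB called (1.52, adjusted p = 0.00647). It put MtnE at 1.37, MtnD at 1.18, MtnA at 0.53 and MtnC at 0.49, none of them called (adjusted p 0.128 to 0.775). The ablated young 0 h and 1 h libraries, which lie with the wild type in that set, gave 0.70 for MtnA when they alone stood for ablated flies (adjusted p = 0.00571), against 0.00 for MtnB, 0.24 for MtnC, 0.25 for MtnE and -0.17 for MtnD. Genotype and library set cannot be told apart in old flies. Without the 2 ablated young libraries whose labels are in doubt, MtnB (0.23, adjusted p = 0.352) and MtnE (0.38, adjusted p = 0.295) lost their calls in young flies, and MtnA and MtnC kept theirs. Left out singly, the ablated young library at 8 h or either doubted one ended the call of MtnB (0.36 to 0.47). The call of MtnE ended without any 1 of 10 libraries, 5 ablated and 5 wild type, all young (0.44 to 0.67, adjusted p 0.0501 to 0.175).

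Markers of the midgut, where metallothioneins are known to be expressed, moved with genotype as well. The 13 midgut markers summed to 2550, 3250 and 5060 CPM (lowest, median and highest) in ablated old flies and to 691, 971 and 1640 CPM in wild-type old flies. In young flies they summed to 3060, 4830 and 7790 CPM in ablated and to 1120, 2280 and 3090 CPM in wild-type libraries. Of the 13, 10 were called higher in ablated flies at each age, and none was at 0. With the library set as a covariate 0 of 13 were called in old and 1 of 13 in young flies, and with batch as a covariate 0 at each age. In whole flies fewer cells of a type and less RNA per cell cannot be told apart, and the part of gut content in the metallothionein differences was not tested. The 7 Malpighian tubule markers, which stand for the insect kidney, had 3 called higher in ablated old and 4 in ablated young flies. Of all genes, 29.9% were called higher in old and 18.2% in young ablated flies. For fat body, median sums were 6230 CPM in ablated and 9730 CPM in wild-type young flies. In old flies they were 6370 and 5620 CPM, in the same order. For female germline and eggshell they were 3510 CPM in ablated and 6660 CPM in wild-type young flies, and 4700 and 3010 CPM in old ones. Haemocyte sums were 44.8 and 40.7 CPM in young and 18.8 and 17.9 CPM in old flies. The part of these tissues was not tested.

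Age was compared within each genotype, and here the members went apart. In wild-type climbers and controls MtnA was higher in old than in young flies, by 0.41 ± 0.15 (adjusted p = 0.0363, edgeR). MtnB fell by 0.84 ± 0.19 on the log2 scale (adjusted p = 0.00119), MtnC fell by 1.16 ± 0.33 (adjusted p = 0.0108) and MtnD fell by 0.91 ± 0.28 (adjusted p = 0.017). MtnE stood at -0.41 ± 0.25 and did not pass (adjusted p = 0.246). In this comparison 23.5% of all genes were called, 11.8% higher and 11.7% lower. Pair by pair, MtnB was lower in old flies at 7 of 7 and MtnA higher at 7 of 7 (exact p = 0.0156 each), MtnC was lower in 6 of 7 (exact p = 0.0312) and MtnD lower in 6 of 7 (exact p = 0.0469). The call of MtnA ended when any 1 of 9 libraries was left out, namely the young 0, 1, 2 or 4 h climbers, the young control or the old 1, 2, 4 or 6 h climbers (0.32 to 0.42, adjusted p 0.0537 to 0.123). No wild-type age pair shared a batch, and with batch as a covariate no member was called for age in either genotype or in non-climbers. The wild-type climber differences were then 0.43 for MtnA, -0.26 for MtnB, -0.34 for MtnC and -0.38 for MtnD. Midgut, fat body, haemocyte and female germline markers were lower in old wild-type flies by their median summed levels. For midgut these were 971 CPM in old and 2280 CPM in young flies, and its calls are given with the interaction below. They were 5620 CPM in old and 9730 CPM in young flies for fat body, 17.9 CPM in old and 40.7 CPM in young flies for haemocytes, and 3010 CPM in old and 6660 CPM in young flies for female germline and eggshell. Of the fat body, haemocyte and female germline markers, 2 of 7, 2 of 6 and 1 of 10 were called lower in climbers, and 1 of 10 female germline markers was called higher. Their part in the metallothionein differences was not tested.

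Wild-type non-climbers, whose libraries are separate from those of the climbers, gave the age comparison again. MtnB fell by 1.09 ± 0.20 (adjusted p = 0.00018), MtnC fell by 1.31 ± 0.36 (adjusted p = 0.00882) and MtnE fell by 0.83 ± 0.27 (adjusted p = 0.0289, edgeR). MtnD stood at -0.83 ± 0.31 and did not pass (adjusted p = 0.0522). Some alternatives called it, namely DESeq2 (adjusted p = 0.0251), the stricter count filter (0.0409) and wild-type libraries alone (0.0334). So did leaving out any 1 of 12 libraries (0.0108 to 0.0498) or all 6 h libraries (0.0236). It was not called without the 1, 2, 4 or 8 h libraries (0.0955 to 0.206). With batch as a covariate it stood at -0.24 (adjusted p = 0.963). MtnA stood at 0.26 ± 0.16 (adjusted p = 0.253). Here 3 of 5 members were called, against 20.4% of all genes called and 9.95% called lower. The call of MtnE ended without the young 4 h or the old 4, 6 or 8 h non-climber library (adjusted p 0.0677 to 0.12). It also ended without all heat-shocked libraries of 1, 2, 4, 6 or 8 h (adjusted p 0.0538 to 0.199). The 6 old non-climber libraries held 7.43 to 18.9 CPM of MtnB and the 6 young ones 19.5 to 27.7 CPM.

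In ablated flies no member was called lower with age. MtnB rose in old against young ablated flies by 0.74 ± 0.18 (adjusted p = 0.00174, edgeR), MtnE by 0.67 ± 0.24 (adjusted p = 0.029) and MtnA by 0.42 ± 0.15 (adjusted p = 0.0221). MtnD stood at 0.41 ± 0.27 (adjusted p = 0.238) and MtnC at -0.62 ± 0.32 (adjusted p = 0.124). Of all genes, 37% were called here and 15.7% were called higher. MtnB was higher in old ablated flies in 6 of 7 pairs (exact p = 0.0312), MtnE in 6 of 7 (exact p = 0.0469) and MtnA in 5 of 7 (exact p = 0.0938). One pair, at 8 h, was of a single batch, and its old minus young differences were 1.70 for MtnE, 1.17 for MtnD, 0.91 for MtnB, 0.29 for MtnA and -0.74 for MtnC. With batch as a covariate the differences were 1.35 for MtnE, 0.82 for MtnB and 0.32 for MtnA, none of them called. Haemocyte markers had a median sum of 18.8 CPM in old and 44.8 CPM in young ablated flies, with 5 of 6 called lower. Without the 2 doubted libraries MtnD was called as well (0.86, adjusted p = 0.0107). The calls of MtnA and MtnE rested on single libraries. That of MtnA ended without the old 0 or 1 h or the young 0, 1 or 4 h library (0.32 to 0.38). That of MtnE ended without the old 2 or 8 h or the young 0, 1, 4 or 8 h library (0.50 to 0.63).

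The difference between the 2 age effects was tested as an interaction, ablated minus wild type. MtnB had the largest value among the members, 1.58 ± 0.26 (adjusted p = 2.54e-05, edgeR), followed by MtnD at 1.32 ± 0.39 (adjusted p = 0.00819) and MtnE at 1.08 ± 0.34 (adjusted p = 0.0146). MtnC stood at 0.54 ± 0.46 (adjusted p = 0.373) and MtnA at 0.01 ± 0.21 (adjusted p = 0.976). These 3 calls among 5 stand beside 36.4% of all genes called and 15.5% called higher. With the library set as a covariate MtnB (1.42, adjusted p = 0.00016) and MtnD (1.17, adjusted p = 0.0344) kept their calls and MtnE had an adjusted p of 0.0555 at 0.98. Without the 8 h libraries MtnE was not called either (0.88, adjusted p = 0.0709). With batch as a covariate none of the 3 was called, at 1.08 for MtnB, 1.36 for MtnD and 1.38 for MtnE. Without the 2 doubted libraries MtnC was called too (1.03, adjusted p = 0.048). Among the 13 midgut markers, 4 were called lower in old ablated flies and 8 in old wild-type climbers. Beside these counts, 37% of all genes were called for age in ablated flies and 15.7% were called higher. In the wild-type comparison 11.7% of all genes were called lower. Of 10 female germline and eggshell markers, 3 had a higher interaction. Their part in these values was not tested.

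Heat shock itself was asked against the 4 control libraries, all taken at 4 h. None of the 5 members was called at 4 h, where 0.769% of all genes were called and 1454 of 11449 had an unadjusted p under 0.05, among them MtnC (-0.84 ± 0.39, adjusted p = 0.359, edgeR). None was called by limma-voom or DESeq2 at 4 h either. At 0 h the fitted differences were -0.50 ± 0.18 for MtnA, 0.41 ± 0.23 for MtnB, -0.46 ± 0.39 for MtnC, -0.74 ± 0.33 for MtnD and -0.80 ± 0.30 for MtnE. None was called beside 3.87% of all genes, with 2254 genes under an unadjusted p of 0.05, among them MtnA, MtnD and MtnE, and of the tools run limma-voom alone called MtnE. Without the wild-type old control library MtnA was called at 0 h (-0.65, adjusted p = 0.0455). The comparisons of 1, 2, 6 and 8 h with control called no member either, in edgeR, limma-voom or DESeq2. They called 2.04%, 1.37%, 0.114% and 0.707% of all genes, and 1861, 1458, 1027 and 1359 genes had an unadjusted p under 0.05. Among these were MtnA, MtnC, MtnD and MtnE at 1 h, at -0.52 ± 0.18, -0.83 ± 0.39, -0.96 ± 0.33 and -0.67 ± 0.30, and MtnA and MtnE at 8 h, at 0.43 ± 0.18 and 0.69 ± 0.30. By contrast, all 13 of the inducible heat shock genes tested were called higher through the first 2 h, and 8 of 13 at 4 h.

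The library labelled ablated young control, whose label is in doubt, held the highest MtnA, MtnC, MtnD and MtnE levels of the 4 controls. Its MtnA level was 1819 CPM, against 1384 CPM in the ablated old, 527 CPM in the wild-type old and 490 CPM in the wild-type young control. Its MtnE level was 79.7 CPM, against 59.5 CPM in the ablated old, 21.0 CPM in the wild-type old and 25.8 CPM in the wild-type young control. Without the 2 doubted libraries MtnA (0.76, adjusted p = 0.00533) and MtnE (1.07, adjusted p = 0.0495) were called higher at 8 h than in controls. Among wild-type libraries alone MtnA was called higher at 6 h (0.69, adjusted p = 0.0414) and at 8 h (0.77, adjusted p = 0.0191). Leaving out the library labelled ablated young control alone gave the 8 h call of MtnA (0.76, adjusted p = 0.0065).

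Within recovery 3 members rose and the other 2 did not pass the test. At 8 h against 0 h MtnD rose by 1.06 ± 0.30 or 2.09-fold (adjusted p = 0.0176, edgeR) and MtnA by 0.93 ± 0.16 or 1.91-fold (adjusted p = 0.000128), beside the rise of MtnE by 1.49 ± 0.27 (adjusted p = 0.00031). MtnB stood at -0.33 ± 0.20 (adjusted p = 0.298) and MtnC at 0.05 ± 0.35 (adjusted p = 0.944). These 3 of 5 were called where 10.5% of all genes were called and 6.46% were called higher. MtnA, MtnD and MtnE were also the members called for any difference among the 6 hours, where 8.71% of all genes were called. With batch as a covariate MtnE (1.93, adjusted p = 0.00777) and MtnA (0.93, adjusted p = 0.0439) were called at 8 h against 0 h and MtnD was not (1.57, adjusted p = 0.0666). For any difference among hours MtnE alone was then called, with adjusted p of 0.0863 for MtnA and 0.0943 for MtnD. In wild-type libraries alone MtnA (0.91, adjusted p = 0.000326) and MtnE (1.13, adjusted p = 0.0244) kept their calls at 8 h against 0 h. MtnD was then not called at 8 h against 0 h (0.74, adjusted p = 0.17) or for any difference among hours (adjusted p = 0.199). Of 10 female germline and eggshell markers, 4 were called lower at 8 h than at 0 h, and their part in these values was not tested.

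MtnE showed the widest rise in a single series. In ablated old flies its level through 0, 1, 2, 4, 6 and 8 h was 25.7, 51.2, 90.0, 106, 97.4 and 201 CPM, all in libraries of 1 batch. In ablated young flies it was 62.0 CPM at 8 h, against 22.7 CPM at 0 h, and in wild-type old climbers 38.5 CPM at 8 h, against 9.21 CPM at 0 h. In wild-type young climbers it was 52.1 CPM at 8 h, against 28.02 CPM at 0 h. Wild-type old non-climbers differed least, with 15.7 CPM at 8 h, against 12.3 CPM at 0 h. The rise was present in 6 of 6 series for MtnA, MtnD and MtnE (exact p = 0.0312 each, the smallest that 6 pairs allow). The share of all genes that rose in 6 of 6 series is not given.

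MtnD followed a like course from lower counts. In ablated old flies it had 71.1 CPM at 8 h, against 16.6 CPM at 0 h, and in wild-type old climbers 13.5 CPM at 8 h, against 5.27 CPM at 0 h. Its call rested on single libraries: without the ablated old 8 h library the difference was 0.91 (adjusted p = 0.0588), and without the ablated old 0 h library it was 0.95 (adjusted p = 0.0572). MtnA had 822 CPM at 8 h in wild-type young climbers, against 348 CPM at 0 h, and 2118 CPM at 8 h in ablated old flies, against 1326 CPM at 0 h. The 8 h and 0 h libraries shared a batch in the ablated old series alone, where the differences were 2.97 for MtnE, 2.09 for MtnD, 0.68 for MtnA, 0.21 for MtnC and 0.07 for MtnB.

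**Figure D4:**
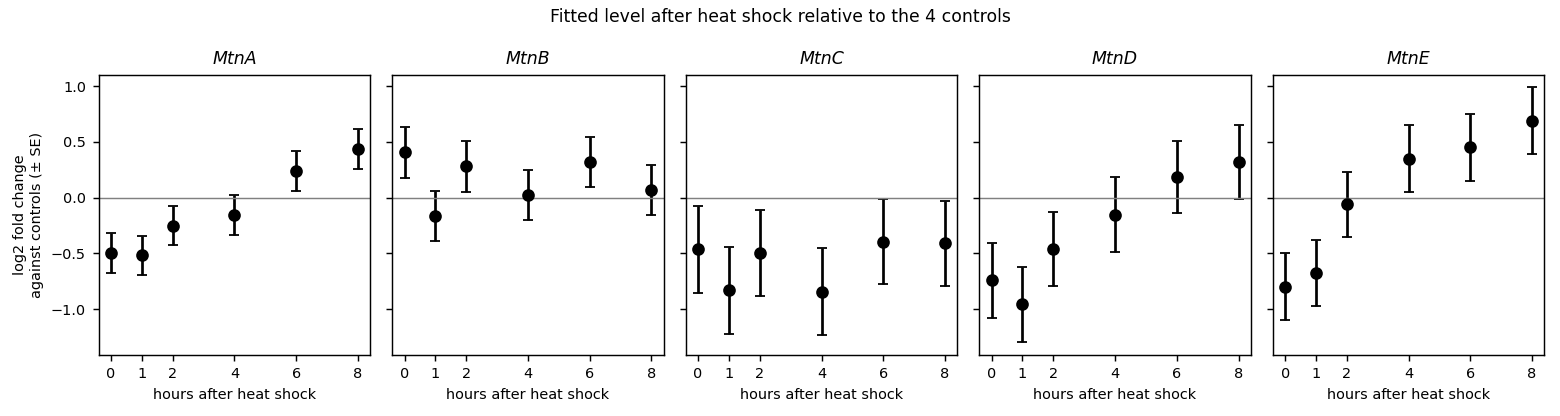
Fitted log2 fold change of each gene at each hour after heat shock relative to the 4 controls, with bars for the standard error. MtnA, MtnD and MtnE lie below 0 at 0 h and 1 h and above 0 at 6 h and 8 h, MtnB stays within 0.41 of 0, and MtnC lies below 0 at every hour.

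Whether the time course differed between groups was tested as a difference in slope on the log2 of the hour plus 1. Ablated minus wild-type slopes in climbers were 0.25 ± 0.25 for MtnC, 0.21 ± 0.17 for MtnD, 0.17 ± 0.13 for MtnB, 0.16 ± 0.16 for MtnE and -0.07 ± 0.08 for MtnA. None was called (adjusted p 0.503 to 0.669 in edgeR), and 0.018% of 11088 genes were called. Old minus young slopes in wild-type flies ran from -0.15 ± 0.11 for MtnB to 0.09 ± 0.17 for MtnC with no call, and 0.183% of 10950 genes were called. At an unadjusted p under 0.05 there were 2236 genes for genotype and 966 for age, and no member among them. DESeq2 and limma-voom called no member in either comparison, and a p that misses the threshold does not show that the slopes were alike.

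Non-climbers were set against climbers of the same age and hour, and 11 of these 12 pairs shared a batch. No gene at all was called over both ages (0% of 11449, with 429 under an unadjusted p of 0.05 in edgeR), and DESeq2 and limma-voom called no member. MtnE stood at -0.68 ± 0.19 (adjusted p = 0.644), MtnD at -0.52 ± 0.21, MtnB at -0.30 ± 0.14, MtnC at -0.21 ± 0.25 and MtnA at -0.10 ± 0.11, the other 4 with an adjusted p of 1. MtnE, MtnD and MtnB were among the genes with an unadjusted p under 0.05. MtnE ranked 17 of all 11449 genes by p. It was lower in non-climbers in 10 of 12 pairs (exact two-sided sign-flip permutation p = 0.00879), and MtnD in 9 of 12 (exact p = 0.0234). These exact p-values are not adjusted for the number of genes.

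Within each age 0% of genes were called as well, with 354 under an unadjusted p of 0.05 in old and 303 in young flies. In old wild-type flies MtnE stood at 8.36, 13.3 and 15.7 CPM (lowest, median and highest of 6) in non-climbers and at 9.21, 27.98 and 38.5 CPM in climbers. The exception among the 6 old pairs was 0 h, with 12.3 CPM in non-climbers and 9.21 CPM in climbers, and from 1 h to 8 h the non-climber level was lower each time. The fitted old difference was -0.88 ± 0.26 and the young one -0.47 ± 0.26 (adjusted p = 1 each, edgeR). The difference between these 2 effects was -0.42 ± 0.37 (adjusted p = 1), with 0% of genes called and 244 under an unadjusted p of 0.05. In young flies the exception was 4 h, with 49.3 CPM in non-climbers and 29.0 CPM in climbers.

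**Figure D5:**
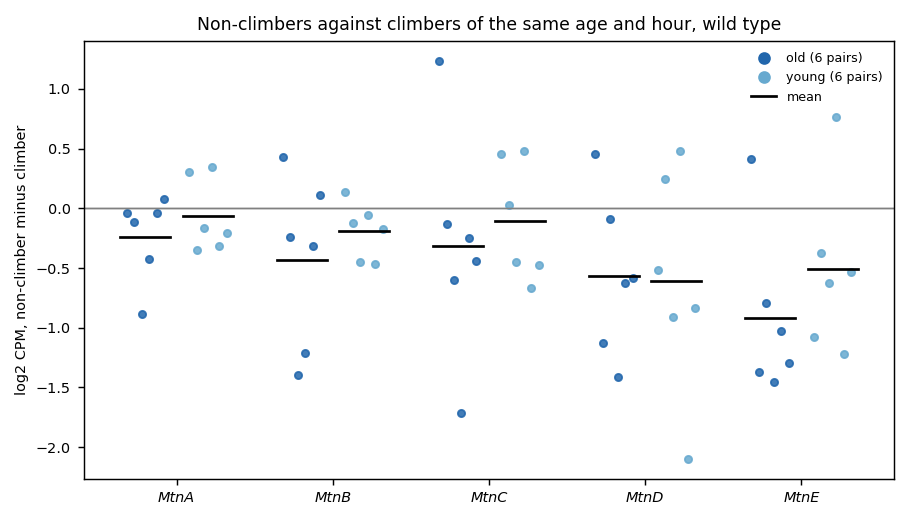
Differences in log2 CPM between non-climber and climber libraries of the same age and hour in wild-type flies, 1 point per pair, old and young side by side, with the mean as a black line. For MtnE 5 of 6 old and 5 of 6 young points lie below 0.

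How far members varied together from library to library differed between pairs. Of 40 relations within the 4 combinations of genotype and age, 9 had an adjusted permutation p of Pearson's r under 0.05, over 80 tests. The r of all 40 ran from -0.32, for MtnA and MtnC in wild-type young libraries, to 0.962, for MtnC and MtnD in ablated young ones. The neighbours MtnD and MtnE had Pearson's r of 0.929 in ablated old, 0.835 in ablated young, 0.918 in wild-type old and 0.785 in wild-type young libraries, on log2 CPM (n = 7, 7, 13 and 13). Spearman's rho was 0.964, 0.857, 0.896 and 0.698 in the same order. The adjusted permutation p of r was 0.0111, 0.0655, 0.0012 and 0.0125 and that of rho was 0.0222, 0.0866, 0.0028 and 0.0572, with exact permutation for n = 7. Without the 2 libraries farthest from the median of MtnD, r was 0.801, 0.972, 0.86 and 0.882. Within the batch that holds most of each group r was 0.929, 0.826, 0.886 and 0.885. MtnB and MtnC had r of 0.546 in ablated old, 0.926 in ablated young, 0.677 in wild-type old and 0.328 in wild-type young libraries, with adjusted permutation p of 0.313, 0.00992, 0.0484 and 0.418 and rho of 0.607, 0.929, 0.577 and 0.28. Without the 2 libraries farthest from the median of MtnB, r was 0.0187, 0.978, 0.549 and 0.221, and within the largest batch it was 0.546, 0.952, 0.809 and 0.59. Both pairs also share the libraries' depth and RNA. The permutations took libraries of all hours and controls as exchangeable, while MtnD and MtnE both rose over the hours. The part of a shared time course in these p-values was not tested. Between residuals, r over the 40 libraries was 0.729 for MtnD and MtnE, against 0.917 between levels. For MtnB and MtnC it was 0.749, against 0.86.

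Genes whose level over the 40 libraries was most like that of a member were found by Pearson's r of log2 CPM, with no test, since libraries share depth, batch and genotype. The 5 members were left out of this ranking, and between themselves MtnD and MtnE had the highest r, 0.917. The 3 nearest to MtnC were CG8093 (0.937), the maltase gene Mal-A4 (0.936) and Alp10 (0.93), of which Mal-A4 codes for a sugar-digesting enzyme. Outside the family MtnE was nearest to the cytochrome P450 genes Cyp4e2 (0.901) and Cyp6d5 (0.87) and to CG16727 (0.864). MtnD was, outside the family, nearest to Acsl (0.85), a fatty acid activating enzyme, Cyp6d5 (0.847) and Cyp4e2 (0.829). MtnA was nearest to CG3091 (0.922), D2hgdh (0.901) and CG15152 (0.9), and MtnB to the ribosomal protein gene RpS13 (0.897), CG8329 (0.892) and CG11267 (0.887).

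Other genes of metal handling moved in both directions. MTF-1, the activator of metallothionein genes, stood at 7.71, 9.36 and 14.4 CPM (lowest, median and highest) in ablated old flies, at 7.60, 10.3 and 18.8 CPM in ablated young flies, at 12.1, 13.4 and 18.3 CPM in wild-type old flies and at 7.62, 9.1 and 12 CPM in wild-type young flies. It was higher in old than in young wild-type flies by 0.58 ± 0.16 (adjusted p = 0.00753, edgeR). In that comparison MtnB, MtnC and MtnD fell, MtnA rose and MtnE did not pass. With batch as a covariate the age difference of MTF-1 was 0.26 and not called (adjusted p = 0.901). MTF-1 was lower in ablated than in wild-type old flies (-0.43 ± 0.16, adjusted p = 0.0204), where all 5 members rose, but this difference turned to 0.84 with batch and to 0.45 with the library set as a covariate. Its interaction of age with genotype was -0.77 ± 0.23 (adjusted p = 0.00774), opposite in sign to those of MtnB, MtnD and MtnE, and it turned to 0.37 with batch as a covariate.

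Among zinc exporters ZnT35C, a transporter known for moving zinc in the Malpighian tubule, rose in ablated flies by 1.58 ± 0.12 in old (adjusted p = 1.98e-12) and 1.63 ± 0.12 in young flies (adjusted p = 4.41e-12, edgeR). Its level was 31.3, 33.6 and 40.4 CPM in ablated old and 6.35, 10 and 13.9 CPM in wild-type old libraries. Of 6 exporters tested, 3 rose and 1 fell in old and 1 rose in young ablated flies. Of all genes, 56.9% were called and 29.9% were called higher in old ablated flies, and 33% and 18.2% in young ones. These shares also stand beside the counts of importers, copper genes and iron genes below. Of 10 zinc importers, 3 rose and 2 fell in old ablated flies, with Zip89B at -1.32 ± 0.19 (adjusted p = 5.58e-07), and 1 rose in young ones. Of 8 copper genes, 4 rose in old ablated flies, among them Cox17 (0.66 ± 0.10), which carries copper to cytochrome oxidase, and Ccs (0.45 ± 0.10), the copper chaperone of superoxide dismutase. In young ablated flies Cox17 alone of these rose (0.54 ± 0.10, adjusted p = 5.98e-05). With batch as a covariate ZnT35C was called in old flies (1.58, adjusted p = 0.039) and not in young ones (1.23, adjusted p = 0.0592). Zip89B was then at -0.16 (adjusted p = 0.989), Cox17 at 0.88 (0.176) and Ccs at 0.93 (0.128) in old flies, none called. Cox17 in young flies stood at 0.90 and was not called (adjusted p = 0.0933).

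Of 10 iron genes, 5 rose in old ablated against old wild-type flies, with the ferritin chains Fer1HCH at 0.44 ± 0.07 and Fer2LCH at 0.53 ± 0.09, while 1 rose and 1 fell in young flies. With the library set as a covariate Fer2LCH turned to -0.17. With batch as a covariate Fer1HCH stood at 0.63 (adjusted p = 0.184) and Fer2LCH at 0.48 (adjusted p = 0.508), neither called. Both chains also rose with age, in ablated flies by 0.64 ± 0.07 and 0.78 ± 0.09 and in wild-type flies by 0.28 ± 0.07 and 0.32 ± 0.09. Of these age differences, Fer1HCH in ablated flies alone kept its call with batch as a covariate (0.71, adjusted p = 0.00559). The others then had an adjusted p of 0.0501 to 0.347. Of the 2 glutathione synthesis genes tested, the catalytic subunit Gclc fell in old ablated flies by 1.06 ± 0.16 (adjusted p = 1.77e-06, edgeR), a difference that turned to 0.11 with the library set as a covariate, while the modifier subunit Gclm rose by 0.39 ± 0.07 (adjusted p = 4.9e-06). With batch as a covariate neither was called, with Gclc at -0.57 (adjusted p = 0.664) and Gclm at 0.62 (adjusted p = 0.141). The medians of these lists in old ablated flies were 0.19 for copper genes, 0.19 for exporters, 0.00 for importers and 0.37 for iron genes, beside 1.77 for the 5 metallothioneins and 0.08 for all genes.

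In recovery, at 8 h against 0 h, the copper importer Ctr1B was the copper gene called, with a rise of 1.13 ± 0.33 (adjusted p = 0.0203, edgeR). Of the iron genes 3 rose and 1 fell, with the mitochondrial ferritin Fer3HCH falling by 3.86 ± 0.58 and Tsf3, a transferrin, rising by 1.20 ± 0.29. Of all genes, 10.5% were called in this comparison and 6.46% were called higher. With batch as a covariate Fer3HCH kept its call (-3.65, adjusted p = 0.0258), while Ctr1B (0.88, adjusted p = 0.359) and Tsf3 (1.00, adjusted p = 0.25) did not. Fer3HCH had the largest called difference of these genes at 0 h against control, 3.94 ± 0.69 (adjusted p = 0.00043), at a level of no more than 5.58 CPM in any library. In the comparison of non-climbers with climbers none of the metal-handling genes tested was called, where 0% of all genes were called.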

How the data were processed

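The deposited values are raw read counts per gene in 40 whole-fly libraries, in 1 table. Per the labels' protocols, 3' libraries were made from total RNA with a Lexogen kit and read 1 alone was analysed, and per the submitters' processing notes STAR 2.7.5a and dm6 were used. The counting tool, annotation, strand setting and use of molecular identifiers are not given in the sources used here.

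From these counts edgeR 4.0.16 (R 4.3.3) fitted a quasi-likelihood model with robust dispersion, TMM scaling and its own low-count filter over all 40 libraries. Its terms were the 4 combinations of genotype and age, control or hour, and non-climbing at each age. P-values were adjusted by Benjamini-Hochberg over all genes tested, with a threshold of 0.05, and every adjusted p in the text is from edgeR unless another tool is named. Slopes were fitted in 24 libraries each. Log2 CPM used a prior count of 2. Matched differences between libraries were tested by exact sign-flip permutation (scipy 1.17.1). DESeq2 1.42.0, limma-voom (limma 3.58.1), other scalings, filters, covariates and sample sets were alternatives. The library set came from the first principal component of 920 transcripts that code for no protein, which held 26.8% of their variance, split at its widest gap. The procedure was tested on simulated counts. These were drawn from the same additive model, without a term for batch or library set, so that they say nothing about either.

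The 5 members were found by FlyBase identifier. All members were named in each comparison. Of each list of metal-handling genes up to 3 called genes per comparison were picked, smallest p first, and the text describes only some of these. The members, gene lists and marker lists were chosen with earlier results of these data known. The use of library set, of the ablated young 0 h and 1 h libraries alone and of leaving out single hours was chosen after seeing the data.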

Additional observations from a re-analysis of the deposited data

Results flagged for a closer look

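The change with age differed between ablated and wild-type flies for 3 members, by the interaction test reported above. The log2 difference, ablated minus wild type, was 1.58 for MtnB, 1.32 for MtnD and 1.08 for MtnE.

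Libraries were put in sets of 6 or 7 of 1 genotype and age. Wild-type climbers and non-climbers formed separate sets, and ablated sets held the climbers with the control. Of 30 combinations of gene and set, 5 held a library that stood apart from the others by Dixon's criterion. Chance alone meets it in about 1 of 20 sets of like libraries. These sets span 0 to 8 h, so that this rate cannot be used here. MtnA stood apart in ablated old flies at 8 h, with 2118 CPM. MtnB stood apart in the library labelled ablated young 6 h, with 61.6 CPM, in wild-type old non-climbers at 0 h, with 18.9 CPM, and in wild-type young non-climbers at 0 h, with 27.7 CPM. MtnC stood apart in wild-type old non-climbers at 0 h, with 20.9 CPM, in the same library as MtnB.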

How the results depend on the processing

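Counts of members called were compared with those reported under other scalings, filters, tools, covariates and sample sets. With batch as a covariate the count was 0 for the young genotype difference, the interaction and all 3 age comparisons, and 1 for the old genotype difference and for any difference among hours. The library set as a covariate left 1 call at each age between genotypes, and 1 was left with the ablated young 0 h and 1 h libraries alone. Without the 2 doubted libraries 2 were called for the young genotype difference and 2 at 8 h against control. Wild-type libraries alone gave 1 call at 6 h and 1 at 8 h against control, and limma-voom gave 1 at 0 h. Wild-type libraries alone also lost MtnD at 8 h against 0 h (0.74, adjusted p = 0.17) and for any difference among hours (adjusted p = 0.199). Leaving out the libraries of 1 hour gave 2 calls for wild-type age (2 h), 1 for ablated age (1 h, 2 h or 8 h) and 2 for the young genotype difference (8 h). Leaving out single libraries gave 0 to 1 calls at 0 h and at 8 h against control, 1 to 4 for ablated age and 2 to 4 for the young genotype difference. It gave 5 in every case for the old genotype difference, 3 for the interaction, 2 to 3 for 8 h against 0 h, and 0 for non-climbers against climbers. The interaction lost MtnE when all 8 h libraries were left out (0.88, adjusted p = 0.0709, edgeR).

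No member's called difference changed sign. With batch as a covariate mfrn turned to -0.0675 for wild-type age and -0.0477 in non-climbers, MTF-1 to 0.84 between old genotypes, and MTF-1 to 0.37, Zip89B to 0.53 and Gclc to 0.12 in the interaction. With the library set as a covariate Zip48C turned to -0.19 between young genotypes, and MTF-1 to 0.45, Atox1 to -0.0384, Fer2LCH to -0.17 and Gclc to 0.11 between old ones. The ablated young 0 h and 1 h libraries alone put Zip48C at -0.21. The cause was not tested. The labels number no replicates; with the pair of libraries of 1 age and hour as a block, no member was called for climbing and MtnE stood at -0.73 (adjusted p = 0.574, edgeR). With 1 library per condition, the smallest exact p is 0.0156 for 7 pairs and 0.0312 for 6.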
